A study of Oryctolagus cuniculus with 35 samples.

Results

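Genes of cell adhesion and cell junctions were examined in rabbit lung: integrin chains, cadherins and protocadherins, claudins and other tight junction proteins, connexins, catenins, desmosomal proteins, and the junctional molecules JAM2 and ESAM. They were chosen by the form of their symbols, which 125 of the 23669 genes listed matched. Of these, 84 reached a value of 10 or more in some library and are the members described here, 18 had reads but stayed under 10, and 23 were listed at 0 in every library. Just inside that limit were ITGBL1, with a highest value of 12.02, ITGB1BP2 with 12.37 and GJA9 with 12.78. Just outside it were PCDHB15 with 9.16, CDH10 with 8.94 and CDH19 with 8.86.

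Messenger RNA of lung tissue was sequenced from 35 New Zealand rabbits, 7 in each of 5 groups, with 1 library per rabbit. The healthy group received saline (NaCl) alone. All other groups had pneumococcal pneumonia combined with adverse mechanical ventilation and differed in what was given 4 h after inoculation: saline (called NaCl below), mesenchymal stromal cells from human umbilical cord (MSC, infused intravenously at 3000000 per kg), ceftaroline (a cephalosporin antibiotic given as ceftaroline-fosamil, 20 mg/kg, intramuscularly), or ceftaroline plus MSC. The tissue was taken 24 h after inoculation, or at death where that came earlier, so infection, ventilation and time to death cannot be told apart from each other in the first comparison. Values are normalized reads, meaning the reads of a gene divided by the size factor of its library, and differences are on the scale of log2(value + 1), where 1 unit is a 2-fold change and low genes are understated.

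Integrins are pairs of an alpha and a beta chain that bind extracellular matrix or other cells and link them to the actin skeleton through focal adhesions. Cadherins hold neighbouring cells together at adherens junctions and desmosomes, where catenins, plakophilins and desmoplakin tie them to the cytoskeleton. Claudins and occludin seal the space between epithelial cells at tight junctions, and connexins form gap junctions that let small molecules pass from cell to cell. In lung these proteins keep the barrier between air, tissue and blood, and leukocyte integrins carry immune cells across it.

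Several central members could not be read. ITGB1, the partner of most matrix-binding alpha chains, ITGB2 with its leukocyte partners ITGAL, ITGAM, ITGAX and ITGAD, and ITGB4, the hemidesmosome chain, were listed at 0 in all 35 libraries. So were CLDN5, the main endothelial claudin, CLDN4, GJA4 and JAM3. CDH2, the neural cadherin, had reads but a highest value of 7.73. By family, members made up 13 of 17 integrin alpha chains listed, 5 of 8 beta chains, 12 of 19 cadherins and 19 of 23 protocadherins. They also made up 7 of 18 claudins, 7 of 14 connexins, 6 of 7 genes named after catenins and 8 of 11 desmosomal proteins. The clustered protocadherins (PCDHA, PCDHB and PCDHG) are closely related and partly share exons, so their reads may be split uncertainly among them.

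The libraries held between 7567008 and 33209729 recovered reads (median 11137017), and the lowest totals were 7567008 in healthy and 7611988 in NaCl. A 2-letter title ending (PD or PG) that the labels do not explain is carried by 5 healthy lungs (4 PD, 1 PG), by 3 lungs of the NaCl group and by 2 given MSC, these last 5 all PG. No lung given ceftaroline carries it. A second mark, S00 in the sample names, is on all 7 healthy libraries and on 1 of 28 from pneumonia lungs (NaCl replicate 2), and the labels do not explain it either. Disease and this mark can hardly be told apart. Without NaCl replicate 2 the mark matches disease fully, so leaving that library out cannot separate them. The first comparison then called 30 of 61 members, beside 5584 of 9545 genes. Of the 30, 27 were among the 29 reported below. In pneumonia, libraries with this ending stood apart in many members, and values by ending follow the first comparison. In bulk tissue, fewer cells of a type and less RNA per cell cannot be told apart.

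Diseased against healthy lung: 61 of the 84 members reached 10 normalized reads in 7 or more of the 14 libraries and were tested. The matrix-binding integrin chains ITGA2, ITGB6, ITGA5 and ITGAV rose, together with the claudin CLDN7 and the connexin GJA1. ITGA8, ITGB5, OCLN, CLDN10, CLDN18 and a row of protocadherins fell. In all, limma called 29 members (47.5%) at an adjusted p under 0.05, against 60.6% of the 9545 genes tested. Of these 10 were higher (16.4%, against 29.7% of all genes) and 19 lower (31.1%, against 30.9%). The median log2 fold change was -0.20 over the members and 0 over all genes. All 7 diseased lungs lay above all 7 healthy lungs for 6 members (9.84%, against 14.7% of all genes), and below them for 10 (16.4%, against 15.2%). The share of members that fell was thus near that of all genes, and the share that rose was below it. CDH20 was under 10 in every NaCl lung and so was tested only through its healthy values. Counted over genes that reached 10 in both groups, 28 of 60 members were called (46.7%, against 60.3% of 9467 genes). Of these 18 were lower (30%, against 30.7%), and 9 lay below all healthy lungs (15%, against 14.9%).

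When values were scaled to the library total instead of the deposited size factors, the median of all genes moved by -0.40. The call then covered 33 members (54.1%, against 61.2% of all genes). Of these 6 were higher (9.84%, against 15.6%) and 27 lower (44.3%, against 45.6%), and ITGB3, ITGA11, ITGB7 and ITGA1 were no longer called. The 6 members that stayed higher were ITGA2, GJA1, ITGB6, CLDN7, ITGA5 and ITGAV. They were those without overlap between the groups under the deposited size factors. As CPM, reads scaled to the library total, only ITGA2 and CLDN7 stayed without overlap. Their highest healthy values were 1.64 and 191, and their lowest NaCl values 2.63 and 265. The groups then overlapped for GJA1, ITGB6, ITGA5 and ITGAV. The highest healthy values were 12.3, 31.0, 369 and 7.14, and the lowest NaCl values 10.5, 24.6, 335 and 6.66.

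**Figure D1:**
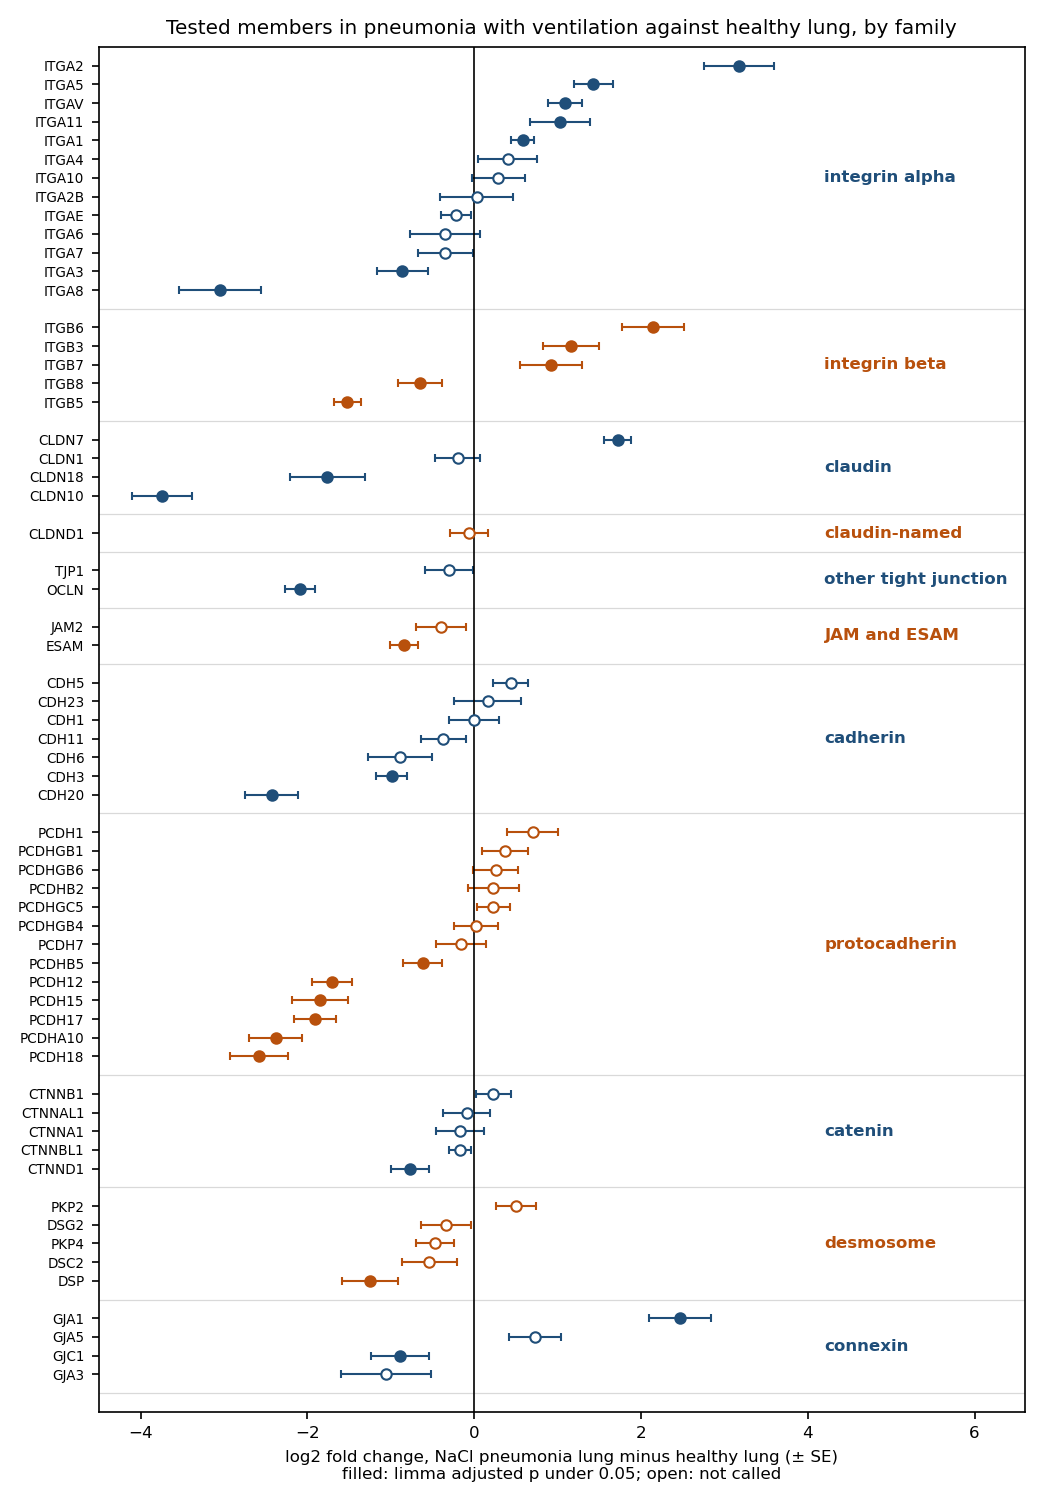
Log2 fold change (x axis, NaCl pneumonia lung minus healthy lung, with its standard error) for the 61 tested members (y axis), grouped by family; filled points were called by limma at an adjusted p under 0.05. ITGA2 at 3.17 and CLDN10 at -3.74 lie at the ends, and no cadherin or protocadherin was called higher.

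Among the collagen-binding alpha chains, ITGA2 showed the largest rise of any tested member. Its NaCl lungs alone met the filter, since of the healthy lungs only replicates 4 and 6 reached 10, at 10.83 and 14.02. The size of the rise, its rank among the members and its test thus rest on a healthy level near that limit. ITGA2 gave the following values. It had 5.64 to 14.02 normalized reads in healthy lung (median 8.87) and 34.5 to 215 in NaCl lung (median 115). No diseased lung came near the healthy range, and the log2 fold change was 3.17 ± 0.42 (SE, n = 7 and 7, limma adjusted p = 1.038e-05). ITGA1, the chain of smooth muscle and capillaries, rose by 0.58 ± 0.14 (adjusted p = 0.001844) with overlapping groups, from a median of 517 to 792. ITGA11, a fibroblast chain, rose by 1.03 ± 0.36 (adjusted p = 0.02335). Its call was lost without healthy replicate 6, where the adjusted p was 0.05132. ITGA10 was at 0.29 ± 0.32 and was not called.

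The alpha chains that bind the RGD sequence of fibronectin and related ligands moved apart. ITGA5, the fibronectin receptor chain, had 1904 to 3040 normalized reads in healthy lung (median 2537) and 4485 to 12216 in NaCl lung (median 6643). It was higher in 7 of 7 diseased lungs, by 1.43 ± 0.23 (adjusted p = 6.248e-05). ITGAV, which pairs with ITGB3, ITGB5, ITGB6 or ITGB8, went from 38.7 to 66.2 (median 47.9) to 69.7 to 144 (median 120), a rise of 1.09 ± 0.20 (adjusted p = 0.0001938). The groups did not overlap for either chain. ITGA8, whose chain in lung marks mesenchymal cells and binds nephronectin, fell by 3.05 ± 0.49 on the log2 scale (adjusted p = 6.664e-05). It had 3097 to 5422 normalized reads in healthy lung (median 4968) and 91.0 to 1963 in NaCl lung (median 589), again without overlap. NPNT, the gene of nephronectin, fell too, by 4.04 ± 0.51 (adjusted p = 7.285e-06).

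The laminin-binding chains included 1 call. ITGA3, an epithelial laminin receptor chain, was lower at -0.86 ± 0.30 (adjusted p = 0.02043), from a median of 4399 to 2069 with overlapping groups. That call was not made by edgeR on the recovered reads, with -0.67 and an adjusted p of 0.06071. ITGA6, another laminin receptor chain of epithelium, was at -0.35 ± 0.42 and ITGA7, the muscle chain, at -0.35 ± 0.33. Neither was called. Chains of blood cells were not called either: ITGA4 of lymphocytes and monocytes at 0.40 ± 0.35, ITGAE of mucosal lymphocytes at -0.22 ± 0.18, and ITGA2B of platelets at 0.03 ± 0.44.

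All 5 beta chains tested were called, 3 higher and 2 lower, where 60.6% of all genes were called. ITGB6, the epithelial chain that with ITGAV activates latent TGF-beta, had 118 to 231 normalized reads in healthy lung (median 181) and 290 to 2241 in NaCl lung (median 770). It was higher in 7 of 7 diseased lungs, by 2.14 ± 0.37 (adjusted p = 0.000144). ITGB5, an ITGAV partner that binds vitronectin, had 2455 to 3383 in healthy lung (median 2788) and 659 to 1409 in NaCl lung (median 1035). It was lower in 7 of 7, at -1.52 ± 0.16 (adjusted p = 1.629e-06). For these 2 chains the groups did not overlap, and for the others they did.

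ITGB3, the partner of ITGAV and of platelet ITGA2B, rose by 1.16 ± 0.34 (adjusted p = 0.008757), from 104 to 295 (median 195) to 201 to 961 (median 479). ITGB7, a lymphocyte chain, was at 0.92 ± 0.37 (adjusted p = 0.04002), and ITGB8, another ITGAV partner, at -0.65 ± 0.26 (adjusted p = 0.04183). The last 2 calls were at the edge. ITGB7 lost its call when any of healthy replicates 1, 2, 3, 6 and 7 or NaCl replicates 1, 2, 3, 4, 6 and 7 was left out, with an adjusted p of up to 0.07828. ITGB8 lost it when any of healthy replicates 1 to 6 or NaCl replicates 1, 5, 6 and 7 was left out, with an adjusted p of up to 0.08486.

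**Figure D2:**
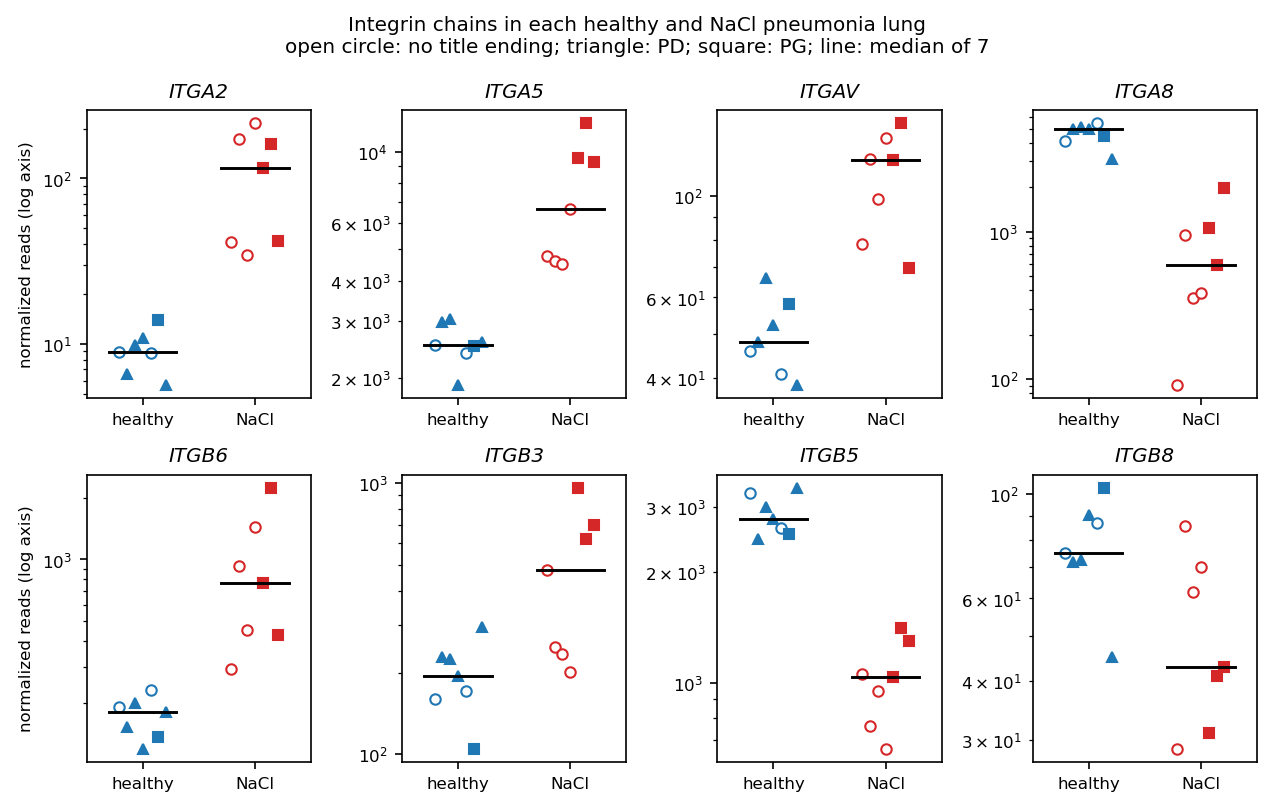
Normalized reads (log axis) of 8 integrin chains in each of 7 healthy and 7 NaCl pneumonia lungs, with the median as a line and the title ending as the marker shape. ITGA2, ITGA5, ITGAV and ITGB6 lie higher and ITGA8 and ITGB5 lower in every NaCl lung, whereas ITGB3 and ITGB8 overlap.

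Genes that act with integrins were read from lists. Of 18 tested genes of focal adhesions and actin linkage, 7 were called higher and 4 lower, together 61.1%, near the 60.6% of all genes. ACTN1, an actin crosslinker, rose by 2.28 ± 0.18, while TLN2, a talin that activates integrins, was at -3.34 ± 0.23 and FERMT1, the epithelial kindlin, at -2.89 ± 0.28. Of 20 tested matrix ligands, 5 were higher and 6 lower, together 55%. THBS1, thrombospondin, rose by 5.26 ± 0.47 and FN1, fibronectin, by 1.05 ± 0.20, and LAMA3, the laminin chain of epithelial basement membrane, was at -1.99 ± 0.36. The median log2 fold change was 0.29 for the focal adhesion list and -0.58 for the ligands, beside 0 for all genes. Of 11 immunoglobulin-type receptors and selectins 4 rose and 4 fell (together 72.7%), with SELP, the endothelial and platelet selectin, at 5.18 ± 0.28 and ICAM2, a ligand of leukocyte integrins, at -1.17 ± 0.28.

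Among tight junction members, CLDN7 rose while the alveolar claudin and occludin fell. CLDN7, a claudin of airway and bronchiolar epithelium, had 1027 to 1773 normalized reads in healthy lung (median 1406) and 3122 to 5491 in NaCl lung (median 4975). It was higher in 7 of 7 diseased lungs, by 1.72 ± 0.16 (adjusted p = 2.872e-07). CLDN18, a claudin of alveolar epithelium, had 16237 to 36569 in healthy lung (median 22723) and 1427 to 18670 in NaCl lung (median 8648). It fell by 1.76 ± 0.45 on the log2 scale (adjusted p = 0.003323). The groups overlapped for CLDN18 only through 1 NaCl lung at 18670 and 1 healthy lung at 16237.

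CLDN10, a claudin that forms ion channels, showed the largest fall of any tested member, with -3.74 ± 0.36 (adjusted p = 5.822e-07). Its healthy lungs alone met the filter, and NaCl replicates 3 and 6 were under 10. The size of the fall, its rank and its test thus rest on a NaCl level near that limit. CLDN10 had 84.6 to 231 normalized reads in healthy lung (median 186) and 3.44 to 21.7 in NaCl lung (median 12.5). OCLN, which encodes occludin, had 1915 to 3165 in healthy lung (median 2211) and 371 to 793 in NaCl lung (median 561), at -2.09 ± 0.18 (adjusted p = 1.956e-07). Both were lower in 7 of 7 diseased lungs, without overlap. CLDN1 was at -0.20 ± 0.27 and TJP1, the scaffold protein ZO-1 beneath the junction, at -0.30 ± 0.29, neither called. ESAM, an endothelial tight junction molecule, was lower in 7 of 7 lungs at -0.84 ± 0.17 (adjusted p = 0.0005535), from a median of 7561 to 4208, and JAM2 was at -0.40 ± 0.30 and not called.

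Of 17 tested scaffold and partner genes of these junctions, 1 was higher (5.88%, against 29.7% of all genes) and 10 lower (58.8%, against 30.9%), with a median log2 fold change of -0.76. CGN, cingulin of the tight junction plaque, was at -1.74 ± 0.15, PATJ of the Crumbs polarity complex at -1.57 ± 0.24, and MARVELD2, tricellulin, at -1.46 ± 0.24. NECTIN1, an adherens junction receptor, was the one called higher, at 1.67 ± 0.26. Among 10 regulators of epithelial-mesenchymal change 3 rose (30%, against 29.7% of all genes) and 4 fell (40%, against 30.9%). Estimates were positive for 5 of the 10, with a median log2 fold change of -0.16, so the list had no common direction. The 4 that fell included the transcription factors GRHL2 and OVOL2, at -1.28 ± 0.46 and -1.43 ± 0.38. The others were the splicing regulators ESRP1 and ESRP2, at -1.73 ± 0.21 and -1.83 ± 0.34. Among proteases that can cut junction proteins 4 of 8 rose (50%) and 1 fell (12.5%), with MMP1, a collagenase, at 7.27 ± 0.85.

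Of 7 tested cadherins 2 were called, both lower, where 60.6% of all genes were called and 30.9% were lower. CDH1, the epithelial E-cadherin, had 2427 to 3209 normalized reads in healthy lung (median 2669) and 1323 to 5803 in NaCl lung (median 2520). Its spread widened and its log2 fold change was -0.00 ± 0.30 (adjusted p = 0.9976). CDH5, the endothelial VE-cadherin, was at 0.44 ± 0.21 (adjusted p = 0.0873), and at -0.02 when scaled to the library total. DESeq2 on the recovered reads did call it, with 0.50 and an adjusted p of 0.03747. CDH3, P-cadherin of basal epithelium, fell by 0.99 ± 0.19 on the log2 scale (adjusted p = 0.0003044), from a median of 792 to 397. CDH20, a low cadherin at 19.6 to 41.1 in healthy lung (median 22.6), was at 1.72 to 8.13 in NaCl lung (median 5.04). Neither its fold nor its test is quoted, since the filter let it in only through the healthy lungs. CDH11 of mesenchymal cells, CDH6 and CDH23 were not called.

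Of 13 tested protocadherins, cadherin relatives without catenin binding, 6 were called, all lower. Beside them, 60.6% of all genes were called and 30.9% were lower. PCDH12, an endothelial protocadherin, had 973 to 1586 normalized reads in healthy lung (median 1240) and 188 to 615 in NaCl lung (median 396), at -1.71 ± 0.24 (adjusted p = 1.761e-05). PCDH17 went from 378 to 825 (median 609) to 93.5 to 252 (median 156), at -1.91 ± 0.25, and PCDH18 from 278 to 819 (median 453) to 29.9 to 162 (median 102), at -2.58 ± 0.35. PCDHA10 was at -2.38 ± 0.32. For these 4 the groups did not overlap. PCDH15, a low gene, was at -1.85 ± 0.34 and PCDHB5 at -0.62 ± 0.23, with overlap, and PCDH1 of airway epithelium at 0.70 ± 0.31 was not called (adjusted p = 0.06509).

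Catenin-named and desmosomal genes were each called in 1 of 5 tested, lower, where 60.6% of all genes were called and 30.9% were lower. Of the genes named after catenins, only CTNND1 (p120-catenin) was called, at -0.77 ± 0.23 (adjusted p = 0.008287). CTNNB1 was at 0.23 ± 0.21 and CTNNA1 at -0.17 ± 0.29. Of the desmosomal genes, only DSP, desmoplakin, was called, at -1.25 ± 0.34 (adjusted p = 0.004446). It went from 809 to 1252 normalized reads (median 1103) to 176 to 867 (median 485), with 1 healthy lung within the NaCl range. DSG2, DSC2, PKP4 and PKP2 were at -0.34, -0.54, -0.47 and 0.50 and were not called.

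GJA1, connexin 43 of epithelium, endothelium and smooth muscle, had 24.8 to 91.5 normalized reads in healthy lung (median 40.5) and 123 to 489 in NaCl lung (median 192). It was higher in 7 of 7 diseased lungs, by 2.47 ± 0.37 (adjusted p = 3.759e-05). GJA5, connexin 40 of arterial endothelium, was at 0.73 ± 0.31 (adjusted p = 0.05369) by limma, and edgeR called it with 0.87 and an adjusted p of 0.018. GJC1, connexin 45, was at -0.89 ± 0.35 (adjusted p = 0.04084). Its call was lost when any of healthy replicates 1, 4, 5 and 6 or NaCl replicates 1, 2, 3, 4 and 7 was left out, with an adjusted p of up to 0.08456, and by edgeR with 0.114.

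**Figure D3:**
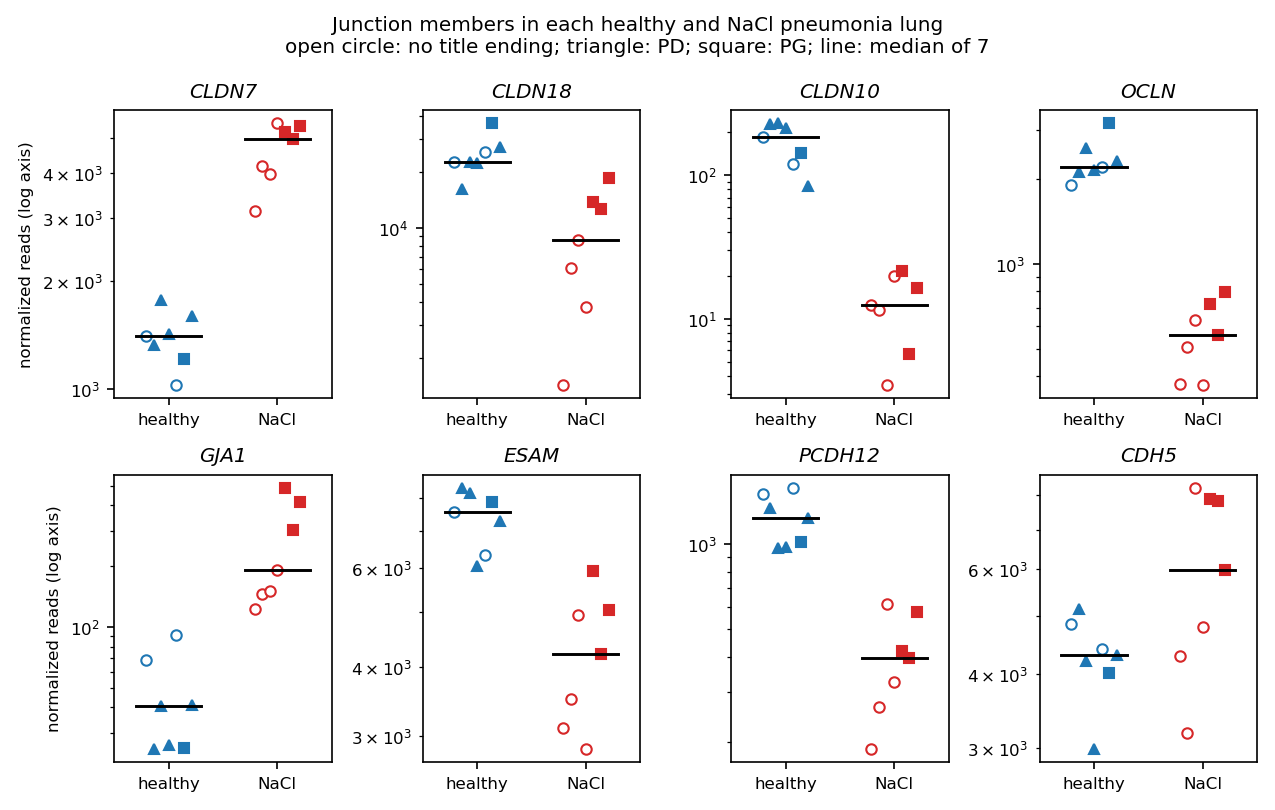
Normalized reads (log axis) of 8 junction genes in each of 7 healthy and 7 NaCl pneumonia lungs, with the median as a line and the title ending as the marker shape. CLDN7 and GJA1 lie higher and CLDN10, OCLN, ESAM and PCDH12 lower in every NaCl lung, while CLDN18 and CDH5 overlap.

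Markers of cell types moved in the same comparison, in which 29.7% of all genes were called higher and 30.9% lower. All 5 tested alveolar type I markers and all 3 tested type II markers fell, and the summed type I level was 110777 to 152686 in healthy and 23623 to 89981 in NaCl lung. The type II sum was 85102 to 148939 and 10516 to 77867, with SFTPC, SFTPD and ABCA3 listed at 0. Endothelial markers gave 6 lower and 1 higher (PECAM1) of 8, with sums of 21246 to 33650 and 10834 to 25639 and CLDN5, ERG and PLVAP listed at 0. Fibroblast markers gave 5 lower of 6, with sums of 16639 to 24926 and 5084 to 19370 and PDGFRA listed at 0. Of 4 tested airway markers 3 fell, namely the ciliary genes CFAP43 at -1.27 ± 0.30, DNAH5 at -2.34 ± 0.50 and TEKT1 at -1.61 ± 0.40. The airway sums were 700 to 3411 and 142 to 5503, with FOXJ1 and SCGB1A1 listed at 0. All 6 tested neutrophil markers rose, from sums of 11989 to 91951 to 143462 to 1303687, with CSF3R listed at 0. Macrophage and monocyte markers gave 6 higher and 0 lower of 11, with sums of 3876 to 8159 and 10354 to 55957. Of the other lists 2 of 6 smooth muscle markers and the 1 tested mesothelial marker were lower, and no T and NK cell, B and plasma cell, platelet or red cell marker was called. Their part in the changes of the members was not tested.

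Ratios of 2 members within a library, which no size factor alters, were formed for pairs chosen after their values were seen and are a description. The log2 ratio of ITGB6 to ITGB5 had a median of -4.10 in healthy lung (-4.55 to -3.51) and -0.43 in NaCl lung (-1.86 to 1.13). The medians were -1.92 with MSC, -0.92 with ceftaroline and -1.28 with ceftaroline plus MSC, and every one of the 28 pneumonia lungs lay above all 7 healthy lungs. The ratio of CLDN7 to OCLN likewise stood above all healthy lungs in all 28, with medians of -0.60 in healthy, 3.04 in NaCl, 2.66 with MSC, 2.55 with ceftaroline and 2.18 with both. Since gene lengths enter these ratios, their sign says nothing of which gene was the more abundant.

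Other pairs came near, into or past the healthy range in some treated lungs. ITGA5 to ITGA8 had a median of -0.75 in healthy and 3.67 in NaCl lung, where the lowest was 2.24. It was at 0.10 in MSC replicate 6, at -0.31 in ceftaroline replicate 7, and at 0.28, 0.33 and -0.08 in ceftaroline plus MSC replicates 3, 5 and 6. CDH5 to PCDH12 had a median of 1.79 in healthy and 3.88 in NaCl lung. The same 5 libraries held its lowest values among the treated lungs, namely 1.38, 0.87, 1.58, 0.71 and 0.93. These 5 libraries were also the lowest of the treated lungs for CLDN7 to OCLN, at -0.34, 0.99, 0.32, 0.80 and 0.63. They carry different treatments, so this is a list of libraries and not a group of the study.

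**Figure D4:**
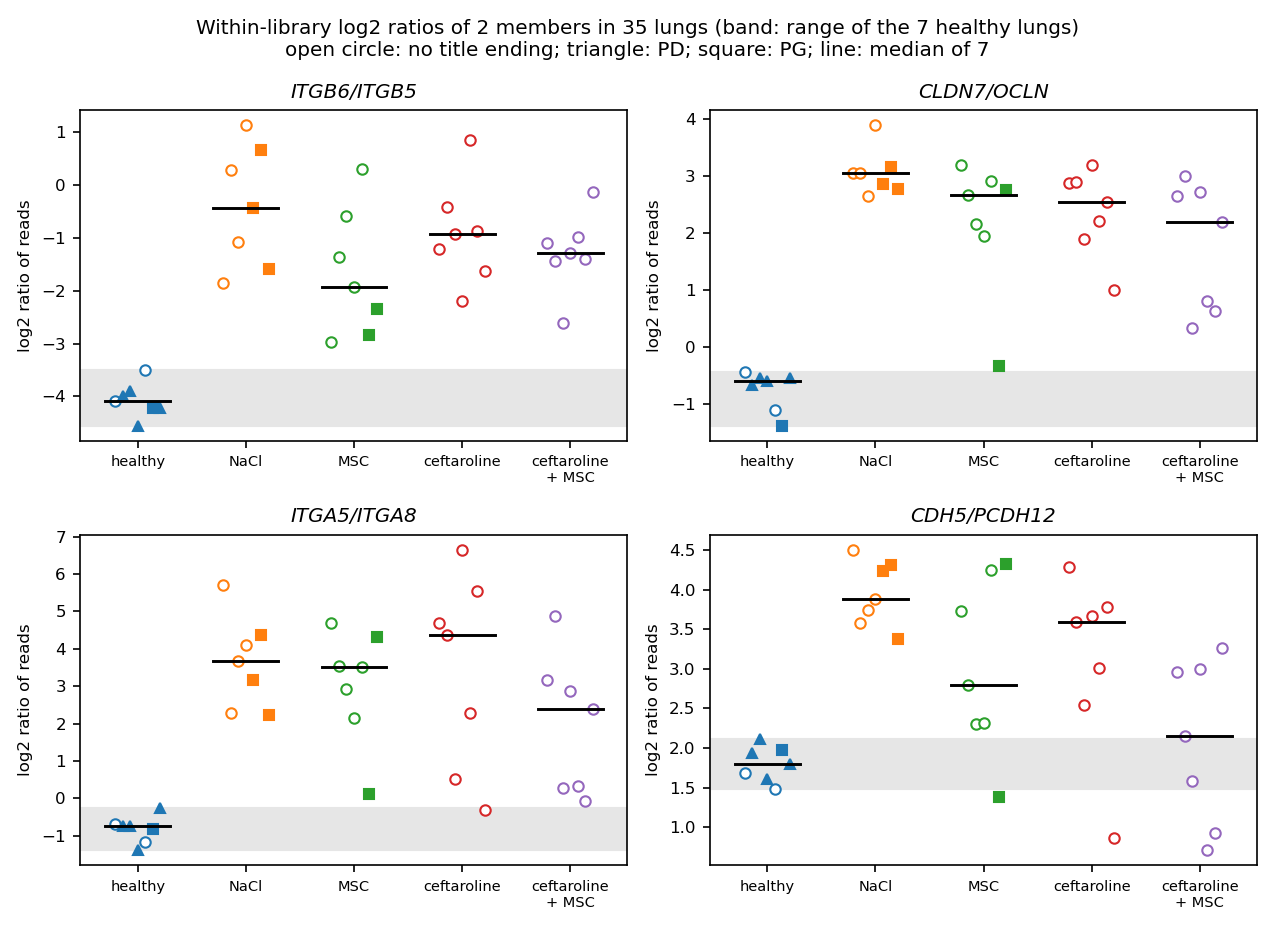
Log2 ratio of the reads of 2 members within each library (y axes) for 35 lungs in 5 groups, with the median as a line, the healthy range as a band and the title ending as the marker shape. All 28 pneumonia lungs lie above the band for ITGB6/ITGB5 and CLDN7/OCLN, while some treated lungs lie near, in or below it for ITGA5/ITGA8 and CDH5/PCDH12.

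Title ending and disease: the disease effect was computed apart in libraries without the ending (2 healthy, 4 NaCl) and with it (5 healthy, 3 NaCl). All 29 called members had the same direction in both. They were called on these same libraries together, so this agreement is favoured by their choice and is a description only. The share over all called genes was not computed. For OCLN the log2 fold change was -2.16 without and -1.84 with the ending, for CLDN7 1.77 and 1.84, for ITGA2 3.14 and 3.23, and for ITGB5 -1.80 and -1.18. Without the ending 27 members were called (44.3%, against 38.2% of all genes). Of these 6 were higher (9.84%, against 20.2%) and 21 lower (34.4%, against 18.1%). With the ending 33 were called (54.1%, against 56.2%), 18 higher (29.5%, against 27.6%) and 15 lower (24.6%, against 28.6%). Of the 29, 6 were not called without it, namely ITGB6, ITGB3, ITGA11, ITGB7, ITGB8 and PCDH15, with adjusted p of 0.06359, 0.1472, 0.08322, 0.09076, 0.4151 and 0.1321. With it 8 were not called: ITGA1, ITGA3, ITGA11, ITGB7, DSP, CTNND1, GJC1 and PCDHB5. GJC1 was at -1.58 without and -0.19 with the ending (adjusted p = 0.7486), and ITGA3 at -1.42 and -0.04 (adjusted p = 0.8398).

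The difference of these 2 effects was tested as an interaction, added after the data were seen. It was called for 13 of 61 members (21.3%), against 9.69% of the 9545 genes tested. Of the 13, 12 were more positive with the ending, beside 442 of the 925 genes called. GJA1 rose by 3.64 with the ending and 0.92 without it, a difference of 2.72 ± 0.39 (adjusted p = 0.00225). Its NaCl values were 123, 146, 150 and 192 normalized reads without and 489, 301 and 415 with the ending. Healthy lungs differed the other way, with means of 80.0 without and 31.5 with the ending.

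ITGA6 was at -1.24 without and 0.88 with the ending (difference 2.12 ± 0.37, adjusted p = 0.004345). Its NaCl values were 298, 213, 265 and 252 normalized reads without and 1614, 785 and 1265 with the ending, against healthy means of 608 and 650. CTNNA1, alpha-catenin, had 2076, 1950, 2971 and 2834 in NaCl lung without and 6339, 5323 and 7266 with the ending (difference 1.68 ± 0.33, adjusted p = 0.008802). Diseased lungs thus lay below the healthy mean without the ending and above it with the ending for both genes. The same pattern of signs held for TJP1 (-1.18 and 0.57), CDH1 (-0.56 and 0.81), CTNNB1 (-0.49 and 0.92), CTNNAL1 (-0.66 and 0.65) and PKP2 (-0.23 and 1.13). For ITGA3, DSP, PCDH1 and ITGA5 the differences were 1.37, 1.42, 1.29 and 0.96. CDH23, a cadherin known from the hair cells of the inner ear, went the other way, at 1.00 without and -0.92 with the ending (difference -1.91 ± 0.52, adjusted p = 0.03328).

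The count rested on few libraries. It was 3 without healthy replicate 5, 7 without healthy replicate 1 or NaCl replicate 5, and 8 without healthy replicate 4 or NaCl replicate 6. Scaled to the library total it was 30 (49.2%, against 23.2% of all genes), with 12 of the 13 among them. All 30 were more positive with the ending, as were 1978 of the 2215 genes called. The median of all genes was then 0.48. Where NaCl and MSC titles have the ending they start with other letters too, and most healthy endings are PD whereas those in pneumonia are PG, so these cannot be told apart.

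**Figure D5:**
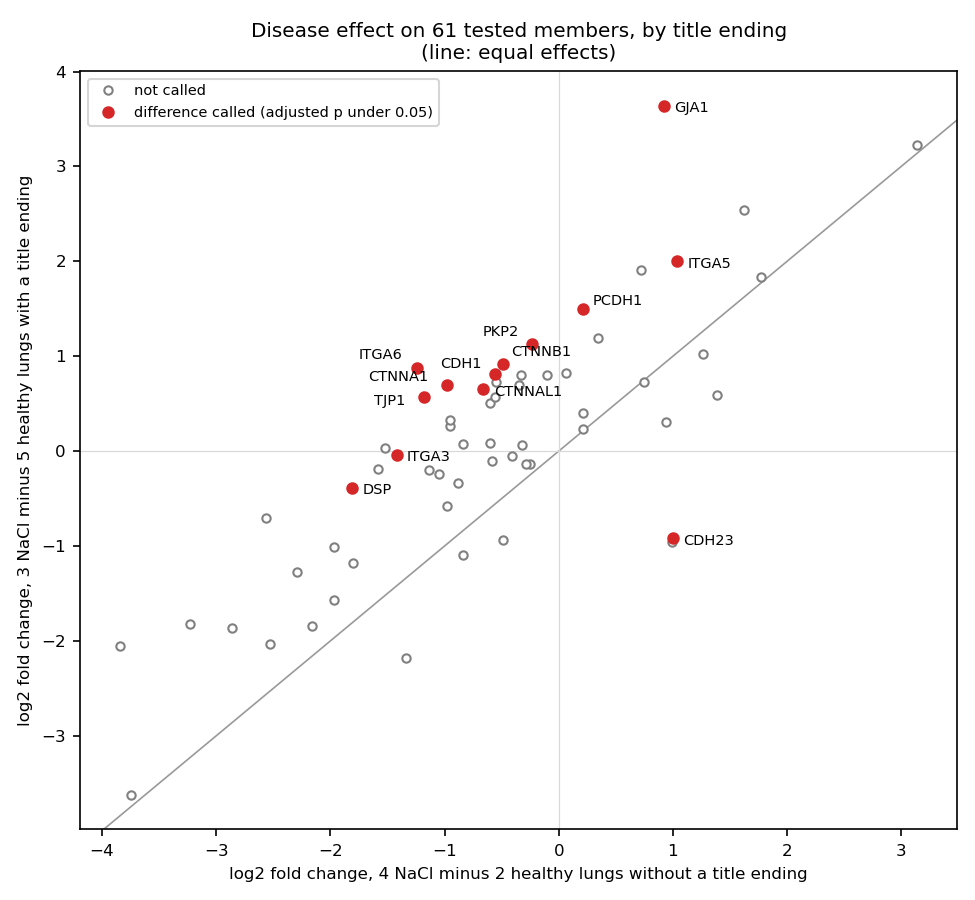
Log2 fold change of each of the 61 tested members between NaCl and healthy lungs without a title ending (x axis) and with it (y axis); red points are the 13 whose difference was called, and the line marks equal effects. Most points lie above the line, 12 of the 13 called ones included, with CDH23 below it.

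Within the NaCl group alone, all 3 lungs with the ending lay above all 4 without it for 21 of 61 members (34.4%, against 17.4% of all genes), and below them for 3 (4.92%, against 15.6%): ITGA1, ITGA2B and CDH23. The MSC group, measured in other rabbits, showed a like picture. Both MSC lungs with the ending lay above the 5 without it for 21 of 60 members (against 11% of all genes) and below for 2 (3.33%, against 11%). Of the members above in NaCl 12 of 21 (57.1%) were above in MSC too, and these were also 57.1% of the members above in MSC, against 38.0% and 56.9% for all genes. They were CLDN18, CLDND1, CTNNA1, CTNNB1, CTNND1, DSP, ITGA3, ITGA6, ITGB3, PCDH1, PCDHGC5 and TJP1. ITGA6 had 459, 342, 369, 409 and 386 normalized reads in MSC lungs without and 1708 and 1233 with the ending.

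Cell type markers moved with the ending in NaCl lung. Summed neutrophil markers were 705234 to 1303687 without and 143462 to 486400 with it, and summed macrophage and monocyte markers 23591 to 55957 and 10354 to 13509. Fibroblast markers were 5084 to 10070 and 11061 to 19370, and smooth muscle markers 2179 to 4761 and 13086 to 44693. Red cell markers were 2443 to 9981 and 602 to 1627. None of these 5 overlapped, whereas alveolar type I (23623 to 89981 and 52458 to 87383), type II and endothelial sums did. The part of these cells in the differences of the members was not tested.

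MSC in diseased lung: none of 60 tested members was called by limma, and none of the 9446 genes tested (0%). At an unadjusted p under 0.05 there were 7 members (11.7%, against 17.7% of all genes), and edgeR called 0 members and 0 genes. DESeq2 on the recovered reads called 0 members and 335 genes (3.55%), limma scaled to the library total 0 and 260 (2.75%), and the authors' deposited table lists 0 and 336 (3.33%). The lowest p belonged to CLDN7, with 3174 to 5561 normalized reads in NaCl (median 4982) and 1263 to 3755 with MSC (median 3361), at -0.66 ± 0.23 (adjusted p = 0.1987). ITGA2 was at -1.50 ± 0.60, with an interval of -2.79 to -0.21. The intervals were -1.81 to -0.19 for GJA1 and -1.96 to -0.05 for ITGB6. Medians of these 4 genes were lower with MSC, and in every one the groups overlapped. CDH11, a mesenchymal cadherin, had the lowest p among those higher, at 0.74 ± 0.29, and ITGAE followed at 0.42 ± 0.19. OCLN was at 0.21 ± 0.30, ITGB5 at 0.26 ± 0.25 and CLDN18 at -0.55 ± 0.72, with intervals of -0.44 to 0.86, -0.27 to 0.79 and -2.09 to 0.99. In libraries without a title ending CLDN7 was at -0.37, GJA1 at -0.61, ITGB6 at -0.67 and ITGA2 at -1.48. Scaled to the library total, where the median of all genes was 0.28, the same 4 were at -0.36, -0.66, -0.69 and -0.98.

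Ceftaroline in diseased lung: none of 62 tested members was called, and none of the 9614 genes tested (0%), while 9 members, all lower, had an unadjusted p under 0.05 (14.5%, against 18.3% of all genes). CLDN7 again led, with 3939 to 6863 normalized reads in NaCl (median 6190) and 3259 to 4964 with ceftaroline (median 4206), at -0.46 ± 0.15 (adjusted p = 0.1623). ITGA2 had 42.8 to 269 (median 140) and 13.4 to 86.9 (median 49.0), at -1.50 ± 0.52 (adjusted p = 0.1713). These 2 genes were called by DESeq2 on the recovered reads, with adjusted p of 0.03948 and 0.03218, and the authors' deposited table lists them too, with 0.0452 and 0.03525. They were 3.23% of the members DESeq2 tested, against 5.4% of all genes, and 2.6% of those in the authors' table, against 4.69%. edgeR called 0 members and 0 genes. DSC2, a desmosomal cadherin, was at -0.77 ± 0.28, PCDH1 at -0.91 ± 0.36, ITGA7 at -0.93 ± 0.39, ITGB3 at -0.85 ± 0.38 and GJA1 at -0.82 ± 0.34. No ceftaroline lung and 3 NaCl lungs carry the title ending. Without those 3, PCDH1 was at -0.27, ITGA7 at -0.48, ITGB3 at -0.24 and GJA1 at -0.24, while DSC2 was at -0.72, CLDN7 at -0.32 and ITGA2 at -1.46. For PCDH1, ITGB3 and GJA1 all NaCl lungs with the ending lay above those without it. Scaled to the library total, where the median of all genes was 0.23, CLDN7 was at -0.21 and DSC2 at -0.29. This comparison shares its NaCl lungs with that of MSC, and the NaCl lungs are the ones called diseased above.

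MSC added to ceftaroline: none of 64 tested members was called, against 4 of 9924 genes (0.0403%). At an unadjusted p under 0.05 there were 3 members, all higher (4.69%, against 11.5% of all genes), and edgeR called 0 members and 11 genes in all. ITGA7, the muscle laminin receptor chain, had 56.3 to 208 normalized reads with ceftaroline (median 105) and 129 to 375 with both (median 205), at 0.94 ± 0.30 (adjusted p = 0.3848). CDH7 was at 0.92 ± 0.39 and ITGB3 at 0.64 ± 0.28. The groups overlapped for all 3. CLDN10 was at 1.75 ± 0.93, with an interval of -0.23 to 3.74, and OCLN at 0.33 ± 0.40. GJB2, connexin 26 of epithelium, was too low to be tested by limma, at 3.80 to 97.3 normalized reads with ceftaroline (median 15.5) and 1.10 to 6.19 with both (median 2.92). The authors' deposited table lists it as lower, the 1 member of 82 called there (1.22%, against 0.963% of all genes). Its fold and test are not quoted, since only ceftaroline lungs reached the value that the filter requires. The 97.3 came from 1 ceftaroline lung.

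The effect of MSC with ceftaroline minus that without it was called for none of 60 members, against 1 of 9417 genes (0.0106%), and none had an unadjusted p under 0.05. edgeR's interaction test also called 0 members. The lowest p belonged to DSC2, with an MSC effect of -0.38 without and 0.45 with ceftaroline, a difference of 0.83 ± 0.41 (adjusted p = 0.9221). For CLDN7 the effects were -0.66 and -0.29 (difference 0.38 ± 0.29) and for ITGA2 -1.50 and -0.68 (difference 0.82 ± 0.76). A missed threshold does not show that MSC acted alike in both settings.

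Across the 5 groups, as CPM (counts per 1e+06 reads of the library total), ITGA2 had medians of 1.11 in healthy, 11.96 in NaCl, 3.50 with MSC, 3.68 with ceftaroline and 1.97 with both. The ranges of the treated groups (0.832 to 13.8, 1.22 to 7.60 and 1.08 to 4.10) reached into the healthy range of 0.647 to 1.64. OCLN had medians of 268, 48.3, 60.2, 56.4 and 97.4 in the same order, and the highest treated lung, at 206, stayed under the lowest healthy lung, at 239. ITGB5 medians were 338, 89.5, 145, 83.6 and 104, and the highest lung of the diseased groups, at 268, lay under the lowest healthy lung, at 296. These levels are given with no test.

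In the authors' deposited table of disease, 42 of 84 members had an adjusted p under 0.05 (50%, against 53.4% of 12307 genes). Of these 19 were higher (22.6%, against 27.2%) and 23 lower (27.4%, against 26.2%). That table tests genes below the limit used here, such as GJB2. It had 0 to 2.42 normalized reads in healthy lung and 3.78 to 97.7 in NaCl lung, the highest in NaCl replicate 4. Its fold and test are not quoted, since only NaCl lungs reached 10.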

How the data were processed

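The authors deposited 4 tables, 1 per comparison, over 23669 Ensembl rabbit genes, each with the signal of 14 libraries (per the file headers, reads over a size factor set for each table). Per the file headers the tables also hold the authors' log2 fold change, standard error, Wald score, p-value and adjusted p-value. Libraries were stranded, single-end at 75 bp, and trimmed with Cutadapt 1.15, per the labels' protocols. The submitters' processing notes name DESeq2 1.24.0, featureCounts 1.5.2 and TopHat2 2.1.1. No coordinates are printed, since the genome build is not given in the sources used here.

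All 646257 values above 0 (100%) were whole multiples of the lowest nonzero value of their column (relative tolerance 1e-06), so whole reads were recovered. Libraries repeated between tables (21 columns) had identical reads. Within groups, chi-square per degree of freedom between lungs was at least 32.2, so none looked like a copy of another. Different titles were taken to name different rabbits, and p-values measure the spread between those rabbits. Apart from their endings, the titles of healthy replicates 6 and 7 match titles of the ceftaroline group in both letter and number. Libraries of different groups were not compared in this way, so whether they share a rabbit was not tested. Reads in the human MSC that align to rabbit genes would be counted with the rabbit's own, and this was not tested.

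Each table was tested by itself in limma 3.58.1 (R 4.3.3) on log2(value + 1), with trended prior variance, two-sided, over genes that reached 10 in 7 or more libraries. A gene was called where its adjusted p (Benjamini-Hochberg, over all genes tested) was under 0.05. Errors after ± are standard errors of the log2 fold change, and intervals are those of limma at 95%. The difference of the MSC effects is the difference of 2 limma estimates over the root of their summed squared errors. edgeR 4.0.16 and DESeq2 1.42.0 were run on the recovered reads as alternatives, with other pseudocounts, filters, scalings and thresholds and with each rabbit left out. The limma and edgeR fits were tested on simulated data.

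For disease the rule names up to 12 called members per direction by size of change, at a mean of at least 50, and for the other comparisons the 5 with the lowest p in each direction. A panel of members known from lung junctions is named whatever its result. CDH20, PCDH15, PCDHB5, other family members and the ratios were added after their values were seen. Members, lists and panel were chosen with earlier results of these data known.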

Additional observations from a re-analysis of the deposited data

Results flagged for a closer look

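In 245 sets of 7 lungs (a named member in a group), 11 had 1 lung far from the other 6, measured as its gap to the nearest lung over the range of the group. Chance flags about 1 in 20 sets, so this number of flags is no more than chance alone would give. The lungs are listed as a description. Ceftaroline plus MSC replicate 2 was the outlying lung for 4 members, low for DSG2 (473.2 normalized reads, the next at 894.2) and GJC1 (54.13, the next at 99.94) and high for ITGAV (273.7, the next at 159.2) and ITGB3 (1124, the next at 680). MSC replicate 6 was low for CLDN7 (1263, the next at 2703) and high for ITGA8 (4630, the next at 855.4). In NaCl, replicate 5 was low for ITGB7 (136.6, the next at 361.8) and replicate 7 high for PCDHA10 (82.5, the next at 33.21). In healthy lung, replicate 4 was low for ITGA7 (99.29, the next at 146.3), replicate 6 high for PKP4 (2791, the next at 1970) and replicate 5 high for TJP1 (374.1, the next at 262.8).

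The disease effect differed by title ending for 13 members in the interaction test. The log2 difference, with minus without the ending, was 2.72 for GJA1, 2.12 for ITGA6, 1.74 for TJP1, 1.68 for CTNNA1, 1.42 for DSP and 1.41 for CTNNB1. It was 1.37 for each of ITGA3, CDH1 and PKP2, 1.31 for CTNNAL1, 1.29 for PCDH1, 0.96 for ITGA5 and -1.91 for CDH23.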

How the results depend on the processing

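The count of members called in disease stayed within 1.5 times the 29 reported under every alternative run: 23 at an adjusted p under 0.01, 36 at 0.1 and 36 of 84 with no filter (27 of the 29 among them), and 25 to 30 with 1 rabbit left out. edgeR called 28 (26 shared) and DESeq2 32 (27 shared). Over genes that reached 10 in both groups, a count chosen after seeing the data, it was 28. In libraries with a title ending 4 uncalled members moved to the opposite sign and were called, CDH1 at 0.81, CTNNA1 at 0.70, ITGA6 at 0.88 and TJP1 at 0.57. The cause was not tested. In the other 4 tests no alternative gave a called member, except DESeq2 for ceftaroline with 2. The interaction with title ending gave 30 under library-total scaling, 4 at an adjusted p under 0.01, and 3 to 14 with 1 rabbit left out.

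The MSC tests with ceftaroline share replicate numbers by title only. Deviations of same-numbered lungs correlated at -0.38 to 0.48, and 2 of 7 lungs correlated best with their own number. With so few lungs this cannot decide whether the numbers pair the rabbits. With the replicate number as a block, 0 members were called (5 at an unadjusted p under 0.05, against 3).

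Of 3634 values of single named members under alternatives, 3393 kept direction and side of the threshold, 4 turned as above, 56 were no longer called, 24 became called and 157 changed sign without being called either way. Low members near a value of 10 are limited by depth, and their log2 changes are understated.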
